A study of Mus musculus with 6 samples.

Results

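The genes described here are the heat shock protein and J-domain protein genes of the mouse. They were taken by name alone from the count table, as every gene whose symbol begins with Dnaja, Dnajb, Dnajc, Hspa, Hspb, Hspd or Hspe followed by a digit, or with Hsp90 or Hsph1. This gave 70 of 18263 genes. They comprised 44 J-domain genes (4 Dnaja, 12 Dnajb and 28 Dnajc), 14 Hsp70 and Hsp110 genes, 7 small heat shock protein genes, 3 Hsp90 genes and the chaperonin genes Hspd1 and Hspe1. A main contrast within them was between 9 inducible cytosolic members, textbook targets of heat shock factor 1, and 9 constitutive cytosolic members that are made without stress.

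mRNA abundance was measured by RNA-seq in hippocampal tissue of 6-month-old 5xFAD and WT littermate mice, with 3 libraries per genotype from 3 mice each. 5xFAD mice are transgenic and express mutant human APP (Swedish, Florida and London mutations) from the murine Thy1 promoter, which is active mainly in neurons, on a C57BL/6J background. WT littermates are not transgenic. The sex of the mice at this age is not given in the sources used here, and no other treatment is named.

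Molecular chaperones bind unfolded or misfolded proteins and use cycles of ATP to refold them or hand them on for degradation. Hsp70 does most of this work, and J-domain proteins (Dnaj) deliver the substrates and trigger its ATPase. Hsp110 members (Hsph1, Hspa4, Hspa4l) exchange the nucleotide of Hsp70, and Hsp90 matures kinases and steroid receptors. Most small heat shock proteins (Hspb) hold aggregating proteins without ATP. In the cytosol, proteotoxic stress releases heat shock factor 1, which binds heat shock elements in the promoters of the inducible members. The endoplasmic reticulum (ER) and mitochondria have their own sets, and in neurons specialised J-domain proteins serve synaptic vesicles and the uncoating of clathrin.

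Library depth was 8.45 to 12.6 M counts. The library of WT replicate 3 stood apart from the other 5. Its deviation from them followed the GC content of the transcripts across 12771 genes (Spearman correlation -0.619, against -0.0636 to 0.0623 in the other libraries), a description over genes that are not independent. Across the 59 members that could be tested, the same correlation in this library was -0.7. There 14 members were at least 2-fold above and 4 at least 2-fold below the mean of the other 5 libraries, from -2.22 for Hspa1l to 1.66 for Dnajc10 on the log2 scale. The members took 1.11% of all counts in this library and 0.655 to 0.707% in the others. Differences without WT replicate 3 are given beside those from all libraries for the genes and lists the text turns on, and for all 59 members in the plot of differences.

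**Figure D1:**
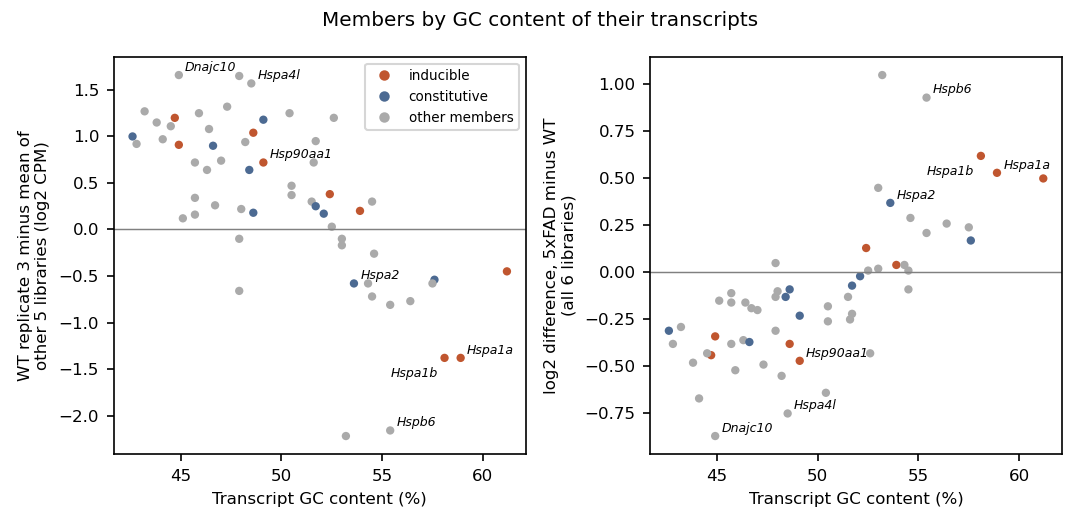
Tested members plotted by the GC content of their transcripts (%). Left, the deviation of WT replicate 3 from the mean of the other 5 libraries (log2 CPM), and right, the log2 difference between 5xFAD and WT in all 6 libraries, for inducible (orange), constitutive (blue) and other (grey) members. GC-rich members such as Hspa1a, Hspa1b and Hspb6 were low in WT replicate 3 and lie above 0 on the right, and GC-poor members such as Dnajc10 show the opposite, with a Spearman correlation of 0.75 on the right over the 59 members.

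No chaperone gene of either kind passed the test between 5xFAD and WT hippocampus. Levels are given as counts scaled to library size (CPM), and differences as log2 of 5xFAD over WT, each with its standard error (SE). Of 59 members tested with the quasi-likelihood test of edgeR, 0 had an adjusted p under 0.05, against 0.656% of all 12952 genes tested (85 genes, all higher in 5xFAD). The smallest adjusted p of a member was 0.81. At an unadjusted p under 0.05 the count was also 0 of 59, against 6.3% of all genes. The rule in the study's methods, an unadjusted p under 0.05 with at least a 2-fold change, also named 0 members, against 3.15%. The study's results state an adjusted p under 0.05 instead, which 0 members had here. Correction for GC content left the count of calls at 0 of 59, against 0.965%. With it 2 members had an unadjusted p under 0.05 by edgeR, Hspa1b higher (log2 difference 0.47) and Hsp90aa1 lower (-0.37). Of all 12952 genes, 638 were higher and 255 lower at that p. DESeq2 gave 0 members at an adjusted p under 0.05 and 1 unadjusted (Hsp90aa1), against 1.68% and 7.22% of all genes. limma-voom gave 0 and 2 (Hspa1b and Hspb6), against 0.602% and 6.23%. In bulk tissue, fewer cells of a type and less RNA per cell cannot be told apart.

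Without WT replicate 3, again 0 of 62 members were called by edgeR, against 2.89% of 13376 genes. There 7 of 62 had an unadjusted p under 0.05, against 14.1% of all genes. Hspa1b, Hspa2, Hspa5, Hspb6 and Dnajc3 were the 5 with a higher value in 5xFAD, against 8.07% of all genes, and Hsp90aa1 and Dnajc6 the 2 with a lower one, against 6.06%. The smallest adjusted p was 0.105, for Hspa5. The median log2 difference over tested members was -0.16 with all libraries, beside -0.02 over all genes, and 0.02 without WT replicate 3, beside 0.01. The number of members above 0 was 19 of 59 with all libraries, against 47.7% of all genes, and 35 of 62 without that library, against 51.6%.

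The precision of these estimates was limited. With all libraries the SE of a member was 0.167 to 0.823 with a median of 0.266, the 95% interval lay wholly within a 2-fold change for 35 of 59 members, and it included 0 for all 59. Without WT replicate 3 the median SE was 0.144 and the interval lay within a 2-fold change for 52 of 62 members.

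**Figure D2:**
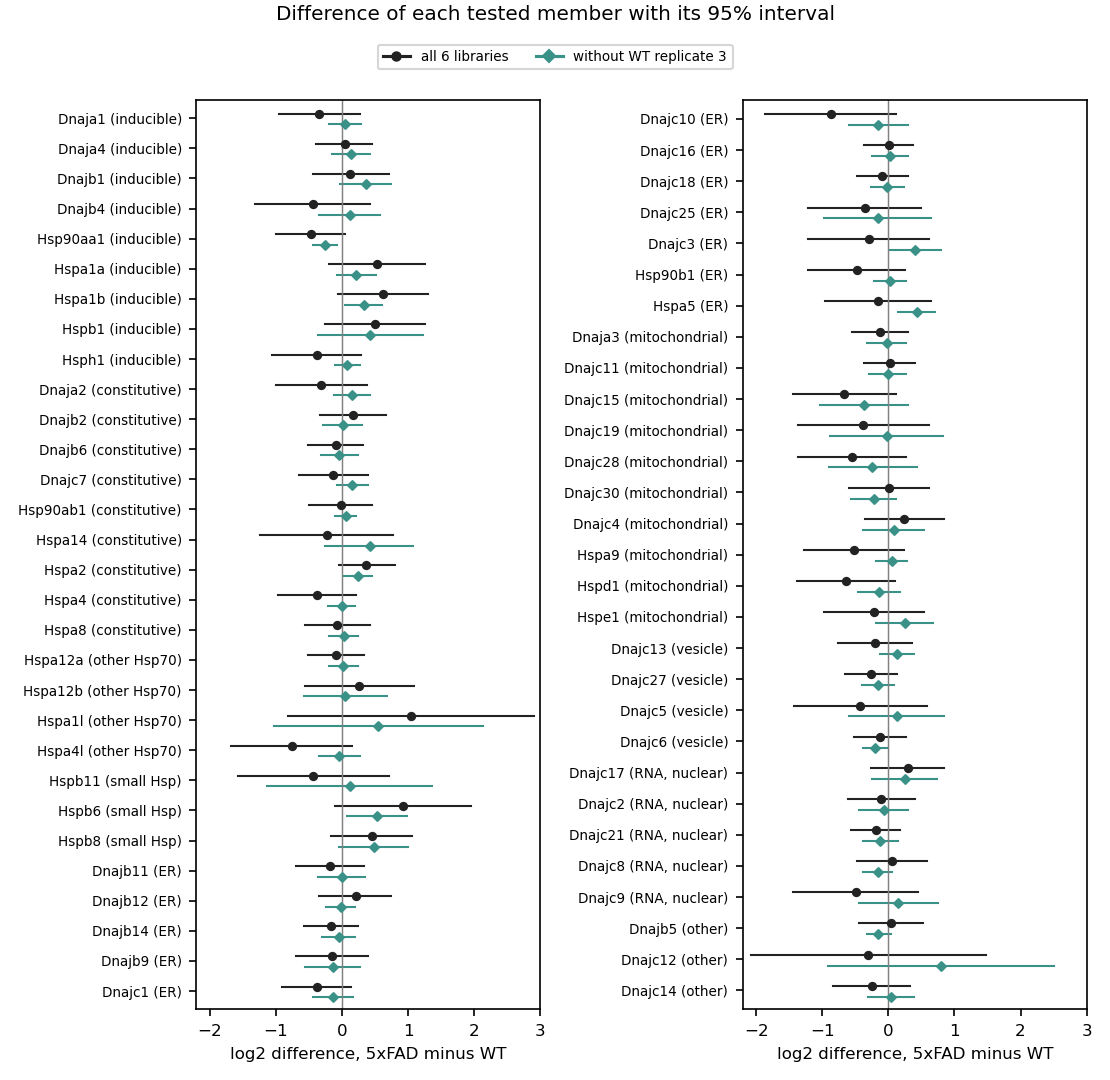
Log2 difference between 5xFAD and WT (x axis) for each of the 59 tested members, named with its group. Points and lines are the edgeR estimate and its 95% interval with all 6 libraries (black circles) and without WT replicate 3 (green diamonds). Every black interval crosses 0, and most green intervals are narrower and closer to 0.

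The 2 inducible cytosolic Hsp70 genes, Hspa1a (ENSMUSG00000091971, chr17:34969190-34972156 on mm10, minus strand) and Hspa1b (ENSMUSG00000090877, chr17:34956436-34959238, minus strand), had similar values throughout. In WT replicates 1 to 3 the level of Hspa1a was 34.3, 37.7 and 15 CPM, and in 5xFAD replicates 1 to 3 it was 40.4, 44.2 and 41.0 CPM. For Hspa1b the levels were 38.1, 44.7 and 18.1 CPM in WT and 50.8, 54.0 and 50.7 CPM in 5xFAD. In both genes every 5xFAD library was above every WT library, and WT replicate 3 was far below the other WT libraries. The log2 difference was 0.53 ± 0.317 (SE) for Hspa1a and 0.62 ± 0.304 for Hspa1b, with unadjusted p of 0.129 and 0.0706 and an adjusted p of 0.81 for each by edgeR. Without WT replicate 3 the differences were 0.22 and 0.33, and the unadjusted p of Hspa1b was 0.0236, with an adjusted p of 0.258.

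The 2 genes are near copies, so that reads could not always be told apart. Of the windows of 150 bases (the read length) in the transcript of Hspa1a, 1074 or 38.1% also occur in that of Hspa1b, where they are 40.5%. How the authors' counting treated such reads is not given in the sources used here, and the split between the genes is uncertain. With the counts of both summed into 1 gene, an alternative chosen after seeing the data, still 0 members were called. Their promoters are near copies too, with 296 of 300 bases identical in the RefSeq promoter table (GRCm38.p6, 250 bases before to 50 after the start). Whether the similar levels of the pair come from this similarity or from shared reads was not tested. The promoters are shown for their similarity, with the 4 bases that differ in capitals, at chr17:34972107-34972406 and chr17:34959189-34959488, both minus strand.
Hspa1a: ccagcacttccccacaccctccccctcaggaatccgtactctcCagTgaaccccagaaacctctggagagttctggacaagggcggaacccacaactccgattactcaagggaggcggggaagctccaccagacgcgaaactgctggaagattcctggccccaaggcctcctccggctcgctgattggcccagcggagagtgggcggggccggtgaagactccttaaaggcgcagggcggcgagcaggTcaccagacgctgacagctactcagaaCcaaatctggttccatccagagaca
Hspa1b: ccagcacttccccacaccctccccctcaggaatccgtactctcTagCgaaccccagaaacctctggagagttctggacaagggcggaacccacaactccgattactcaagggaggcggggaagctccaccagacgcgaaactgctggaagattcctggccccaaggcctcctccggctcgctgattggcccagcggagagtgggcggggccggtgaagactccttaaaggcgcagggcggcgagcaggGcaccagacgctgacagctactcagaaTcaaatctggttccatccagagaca

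Heat shock elements are repeats of the unit GAA in alternating orientation. A promoter row was found for 56 of the 70 members, and where a gene had several rows, any of them could hold the motif. The 2-unit motif, GAANNTTC or TTCNNGAA on either strand, occurred in 16 of 56 members (28.6%) and in 17.0% of 27025 genes. Members with no row include Hsp90aa1, Hsp90ab1 and Hspa8. The motif occurred in 7 of 8 inducible members, the exception being Dnajb1, and in 1 of 7 constitutive members, Dnajb6. The remaining members with it, outside these lists, were Hspb3, Hspb6, Hspb8, Hspd1, Hspe1, Dnajc10, Dnajc27 and Dnajc5g. The inducible members were listed as textbook targets of heat shock factor 1, so their share was in part set by the list. Hspa1a and Hspa1b, near copies, hold the same match and were counted as 2. The stricter 3-unit motif, GAANNTTCNNGAA or TTCNNGAANNTTC, which contains the 2-unit one, occurred in Hspd1, Hspe1, Hsph1 and Dnajb6, 4 of 56 (7.14%) against 0.662% of all genes. Of these, Hsph1 is the only inducible member (1 of 8) and Dnajb6 the only constitutive one (1 of 7). Hspd1 and Hspe1 hold the same elements in windows that share 285 bases, so they are not separate matches. A match is a description of the letters and not a bound site. The 30 bases around a 2-unit match, in capitals, are shown for the 7 inducible members that hold one and for Dnajb6, since these are the letters behind the counts. They lie at chr17:34972242-34972271, chr17:34959324-34959353, chr5:149636351-149636380, chr3:152193841-152193870, chr4:40722333-40722362, chr9:54699458-54699487, chr5:135887791-135887820 and chr5:29735841-29735870 in the order printed, the first 4 on the minus and the others on the plus strand.
Hspa1a: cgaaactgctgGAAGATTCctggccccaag
Hspa1b: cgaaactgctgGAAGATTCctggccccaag
Hsph1: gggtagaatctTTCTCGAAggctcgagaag
Dnajb4: ttcgttcgctgTTCTAGAAagtacagagac
Dnaja1: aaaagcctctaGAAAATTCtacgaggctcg
Dnaja4: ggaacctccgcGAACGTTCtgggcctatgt
Hspb1: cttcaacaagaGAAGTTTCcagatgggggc
Dnajb6: ctcagctccgaGAATCTTCcggaacgctag

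Of the other inducible members, Hsp90aa1, the inducible cytosolic Hsp90 (ENSMUSG00000021270, chr12:110690605-110702728), had the lowest p on the lower side. Its level was 736, 818 and 1150 CPM in WT replicates 1 to 3 and 701, 631 and 625 CPM in 5xFAD replicates 1 to 3. Every 5xFAD library was below every WT library, and WT replicate 3 was the highest. The log2 difference was -0.47 ± 0.229 (SE), with an unadjusted p of 0.0708 and an adjusted p of 0.81 by edgeR. Without WT replicate 3 it was -0.25, with an unadjusted p of 0.0106 and an adjusted p of 0.17. Its values thus lay on the other side from those of Hspa1a and Hspa1b.

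Hspb1, the small heat shock protein that is induced by stress, was scarce. It had 3.46, 3.21 and 2.86 CPM in WT replicates 1 to 3 and 4.46, 3.99 and 5.01 CPM in 5xFAD replicates 1 to 3. The groups did not overlap, and the difference of 0.50 ± 0.333 had an adjusted p of 0.811 by edgeR, and was 0.43 without WT replicate 3. Hsph1, the inducible Hsp110, had 173, 171 and 367 CPM in WT and 186, 170 and 189 CPM in 5xFAD, so that only WT replicate 3 stood out. Its difference went from -0.38 to 0.08 without that library.

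The inducible J-domain partners of cytosolic Hsp70 showed overlapping groups. Dnajb1, the main stress-induced partner, had 19.6, 17.5 and 27.9 CPM in WT replicates 1 to 3 and 20.4, 28.5 and 22.5 CPM in 5xFAD replicates 1 to 3, a difference of 0.13 ± 0.253, and of 0.36 without WT replicate 3. Dnaja4 had a mean of 50.9 ± 5.89 CPM in WT and 52.2 ± 7.32 CPM in 5xFAD (SD, n = 3). Dnaja1 and Dnajb4 were highest in WT replicate 3, at 156 and 47.6 CPM, against 76.3 to 90.8 CPM and 15.9 to 26 CPM in the other 5 libraries. Exons of Dnaja1 overlap those of Smu1 on the opposite strand, and the strand setting of the counting is not given in the sources used here.

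Over the 9 inducible members the median log2 difference was 0.04, with 5 above and 4 below 0. With the counts of the near copies Hspa1a and Hspa1b summed into 1 gene it was -0.15, so that its sign depended on counting them apart. Counted apart and without WT replicate 3, the median was 0.14 and 8 of 9 lay above 0, the exception being Hsp90aa1. Of the 9, Hspa1a, Hspa1b and Hspb1 did not overlap and were higher in 5xFAD, and Hsp90aa1 did not overlap and was lower. Over all tested members 10 of 59 did not overlap, against 14.8% of all genes, 7 of them higher (8.42%) and 3 lower (6.35%). The other higher ones were Hspa2, Hspb6, Hspb8 and Dnajc17, and the other lower ones Dnajc21 and Dnajc27.

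**Figure D3:**
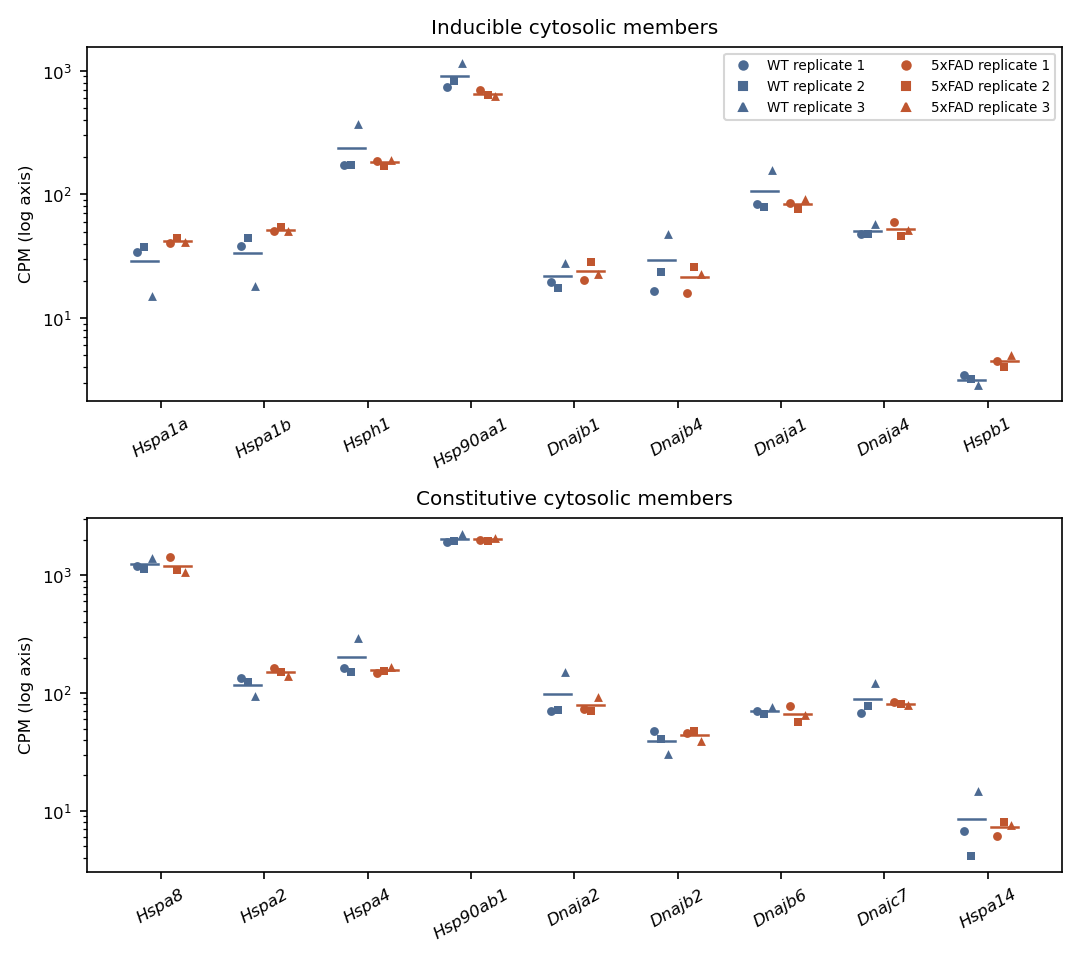
Level in CPM (log axis) of the 9 inducible members (top) and the 9 constitutive members (bottom) in each library, with WT in blue, 5xFAD in orange, 1 symbol per replicate number and a line at the group mean. WT replicate 3 lies apart in most genes, as for Hspa1a (15 CPM against 34.3 to 44.2 CPM) and Hsph1 (367 against 170 to 189 CPM). The other libraries lie close together for some genes and spread for others, as for Dnajb1 (17.5 to 28.5 CPM). In some genes they are separate by genotype, as for Hsp90aa1 (736 and 818 CPM in WT against 625 to 701 CPM in 5xFAD).

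The most abundant chaperone genes of this tissue were constitutive members. Relative to exon length, Hsp90ab1 led with 679 CPM per kb in WT, followed by Hspa8 with 290 and the inducible Hsp90aa1 with 230. These 3 genes took 52.3 to 55.8% of all counts of the 70 members in each library. Hsp90ab1, the constitutive Hsp90, had 1920, 1950 and 2240 CPM in WT replicates 1 to 3 and 2000, 1970 and 2070 CPM in 5xFAD replicates 1 to 3. Its difference was -0.02 ± 0.21, and 0.06 without WT replicate 3. Hspa8, the constitutive Hsp70 that also strips clathrin from vesicles, had 1210, 1130 and 1400 CPM in WT and 1420, 1100 and 1060 CPM in 5xFAD. The groups overlapped, and the difference of -0.07 ± 0.22 had a 95% interval from -0.56 to 0.43, with 0.03 without WT replicate 3.

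Hspa2, an Hsp70 best known from spermatogenesis but strongly expressed here, was the constitutive member with the smallest p. It had 133, 123 and 94.4 CPM in WT replicates 1 to 3 and 163, 150 and 140 CPM in 5xFAD replicates 1 to 3. Every 5xFAD library was above every WT library. The difference was 0.37 ± 0.188, with an unadjusted p of 0.0783 and an adjusted p of 0.81 by edgeR, and 0.24 without WT replicate 3. No window of 150 bases of the transcript of Hspa8 occurs in that of Hspa2, and no other gene was compared with Hspa2 in this way.

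The remaining constitutive members all overlapped between groups. Hspa4, a nucleotide exchange factor of Hsp70, had 151 to 292 CPM in WT and 148 to 166 CPM in 5xFAD. Dnaja2, which serves Hspa8 in refolding, had 70.8 to 150 CPM and 70.6 to 93.4 CPM. Both were highest in WT replicate 3. Dnajb2 and Dnajb6, which hold back polyglutamine and other aggregates, had a mean of 39.5 ± 8.86 and 70.9 ± 5.13 CPM in WT and 44.3 ± 4.51 and 66.6 ± 10.5 CPM in 5xFAD (SD, n = 3). Dnajc7, which binds both Hsp70 and Hsp90, had 88.7 ± 28.1 and 81.0 ± 2.47 CPM, and its exons overlap those of the myelin gene Cnp on the opposite strand. Hspa14, the ribosome-associated Hsp70, had 4.13 to 14.7 CPM in WT and 6.07 to 8.09 CPM in 5xFAD. Its exons overlap those of another gene entry with the same symbol on the same strand. The effect of this overlap on the level of Hspa14 was not tested.

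Over the 9 constitutive members the median difference was -0.09, with 2 above and 7 below 0, and 0.06 without WT replicate 3, with 7 above and 2 below. The mean log2 CPM of the inducible members minus that of the constitutive members was -1.42, -1.22 and -1.51 in WT replicates 1 to 3 and -1.34, -1.24 and -1.25 in 5xFAD replicates 1 to 3. The groups overlapped, with a mean of -1.39 ± 0.148 in WT and -1.28 ± 0.0573 in 5xFAD (SD, n = 3). In the fitted values the genotypes differed by 0.10 on the log2 scale, less than the SD among WT libraries, and by 0.05 without WT replicate 3.

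Ratios of counts within a library do not depend on its scaling, and were compared as a description with no test. They can still carry the GC dependence of WT replicate 3 where the paired genes differ in GC content. The groups did not overlap in 3 of the 9 ratios computed, and 2 of the 3 were just separate. The share over other pairs of genes was not computed, and the 14.8% of all genes is for single levels and not for ratios. Hsp90aa1 was 0.383, 0.419 and 0.516 of Hsp90ab1 in WT replicates 1 to 3 and 0.350, 0.321 and 0.303 in 5xFAD replicates 1 to 3. The means were 0.44 ± 0.0686 and 0.324 ± 0.0238 (SD, n = 3). WT replicate 3 had the highest ratio and raised the WT mean, and the groups did not overlap with or without it. Hspa1a and Hspa1b together were 5.95, 7.28 and 2.36% of Hspa8 in WT and 6.44, 8.89 and 8.66% in 5xFAD. Here the groups overlapped, since 5xFAD replicate 1 lay below WT replicate 2. Hsph1 was 1.15 ± 0.0991 of Hspa4 in WT and 1.16 ± 0.08 in 5xFAD, and Dnaja1 was 1.11 ± 0.0755 and 1.08 ± 0.0999 of Dnaja2. The ratio of Hspa1b to Hspa1a was 1.11, 1.19 and 1.21 in WT and 1.26, 1.22 and 1.24 in 5xFAD. These groups were just separate, at 1.21 and 1.22, subject to the uncertain split of reads between the genes. Hspd1, the chaperonin Hsp60, was 2.81, 3.70 and 3.38 of its partner Hspe1 in WT and 2.30, 2.79 and 2.45 in 5xFAD, also just separate, at 2.81 and 2.79. Exons of Hspd1 and Hspe1 overlap on opposite strands, so that reads of the overlap cannot be told apart without a known strand setting.

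**Figure D4:**
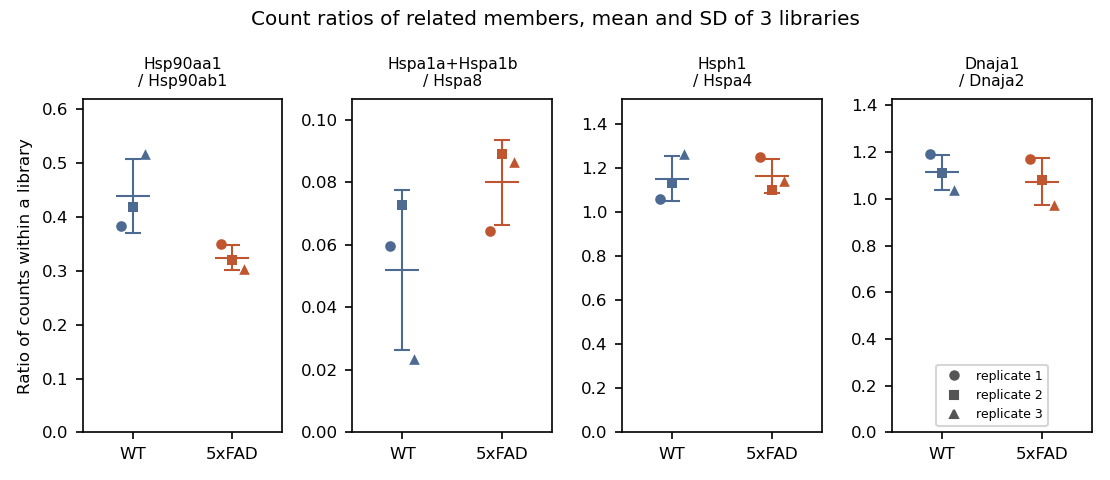
Ratio of counts of an inducible member to a constitutive relative within each library (y axis, from 0), with WT in blue, 5xFAD in orange, 1 symbol per replicate and the mean with its SD over 3 libraries. Hsp90aa1 to Hsp90ab1 is the only one of the 4 ratios shown in which the groups do not overlap (0.383 to 0.516 in WT and 0.303 to 0.350 in 5xFAD).

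Several of the small heat shock proteins other than Hspb1 hold early aggregates in muscle, glia and vessels. Hspb6 (ENSMUSG00000036854, chr7:30552178-30555443) had the smallest p of all members on the higher side. Its level was 12.5, 13.4 and 3.43 CPM in WT replicates 1 to 3 and 17.0, 23.9 and 15.3 CPM in 5xFAD replicates 1 to 3. The groups did not overlap, and WT replicate 3 lay far below the rest. The difference was 0.93 ± 0.453, with an unadjusted p of 0.0705 and an adjusted p of 0.81 by edgeR, and without WT replicate 3 it was 0.53, with an adjusted p of 0.272. Exons of Hspb6 overlap those of Lin37 and Proser3.

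Hspb8, which works with Bag3 to direct clients to autophagy, had 11, 9.92 and 11.1 CPM in WT replicates 1 to 3 and 13, 19.5 and 11.3 CPM in 5xFAD replicates 1 to 3. The groups were just separate, at 11.1 and 11.3 CPM. The difference was 0.45 ± 0.272, and 0.48 without WT replicate 3, so that it did not rest on that library. Without 5xFAD replicate 2 it was 0.18. Hspb11, a subunit of the ciliary transport machinery, had 1.41 to 3.81 CPM in all libraries.

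Markers of some other cell types moved with genotype beside these values. The summed level of 13 microglial markers was 162 to 252 CPM in WT and 727 to 779 CPM in 5xFAD, with 12 of 12 tested markers above 0 and 6 called (10 without WT replicate 3), and Cst7 and Itgax at or under 0.191 CPM in all WT libraries. The sum of 8 astrocyte markers was 5300 to 5550 CPM in WT and 6110 to 7000 CPM in 5xFAD, with 2 called higher (Gfap and Vim), and Aqp4 as well without WT replicate 3. Gfap alone had 287 to 330 CPM in WT and 1470 to 1740 CPM in 5xFAD. Of the 8 astrocyte markers 5 lay above and 3 below 0, and without WT replicate 3 the counts were 6 and 2. The sum of 7 endothelial markers was 178 to 192 and 175 to 188 CPM, and that of 7 mural markers 183 to 228 and 162 to 242 CPM, with 0 of either called with or without WT replicate 3. The sum of 7 choroid plexus and ependymal markers ranged from 414 to 2340 CPM in WT and from 774 to 4390 CPM in 5xFAD, and was highest in 5xFAD replicate 2, the library in which Hspb6 and Hspb8 were also highest. All 6 tested markers of this list lay above 0 with and without WT replicate 3, at medians of 0.75 and 0.39. In both fits 0 were called, and Foxj1 did not overlap between groups. The sum of 10 immediate early genes was 2040, 2050 and 821 CPM in WT replicates 1 to 3 and 1390 to 1470 CPM in 5xFAD. Of these genes 6 of 10 lay below 0 with 0 called, and without WT replicate 3 all 10 lay below 0 with 4 called lower (Arc, Dusp1, Egr1 and Nr4a1). The sum of 7 excitatory neuron markers was 17200, 19300 and 7630 CPM in WT and 15400 to 17100 CPM in 5xFAD, with 3 of 7 below 0 and 0 called, and without WT replicate 3 all 7 below 0 and 1 called lower. The sum of 6 inhibitory neuron markers was 535 to 595 CPM in WT and 411 to 544 CPM in 5xFAD. All 6 lay below 0 with and without WT replicate 3, at medians of -0.45 and -0.32 with 0 called, and Pvalb and Vip did not overlap between groups. The sum of 6 oligodendrocyte markers was 2010 to 3090 CPM in WT, lowest in WT replicate 3, and 3050 to 3430 CPM in 5xFAD, with 0 called in either fit. The part of any of these in the values of the chaperones was not tested.

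The chaperones of the ER assist secreted and membrane proteins and are induced by the unfolded protein response. Hspa5, the ER Hsp70 known as BiP (ENSMUSG00000026864, chr2:34771970-34777547), had 57.7, 73.7 and 165 CPM in WT replicates 1 to 3 and 77.3, 89.9 and 97.6 CPM in 5xFAD replicates 1 to 3. All 5xFAD libraries lay above WT replicates 1 and 2 and below WT replicate 3. The sign of the difference therefore depended on that library, at -0.16 ± 0.354 with all 6 and 0.43 ± 0.133 without it, where the unadjusted p was 0.00447 and the adjusted p 0.105 by edgeR. After correction of all 6 libraries for GC content it was 0.10. Dnajc3, an ER partner of Hspa5 that also restrains the kinase of the integrated stress response, followed the same pattern. It had 17.7, 14.6 and 46.3 CPM in WT and 22.8, 20 and 21.2 CPM in 5xFAD, with differences of -0.29 and, without WT replicate 3, 0.41.

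Of the other ER members, Hsp90b1, the ER Hsp90, had 147, 155 and 335 CPM in WT replicates 1 to 3 and 126, 166 and 164 CPM in 5xFAD replicates 1 to 3, with a difference of -0.48 ± 0.321 with all libraries and of 0.02 without WT replicate 3, so that its sign depended on that library too. Dnajc10, an ER reductase with a J domain, had 20, 16.3 and 53.0 CPM in WT and 13, 14.7 and 20.9 CPM in 5xFAD. Its difference was -0.87 ± 0.436 with all libraries and -0.15 without WT replicate 3. Dnajb9 and Dnajb11, soluble partners of Hspa5, had differences of -0.15 and -0.18, and of -0.14 and -0.00 without WT replicate 3. Dnajb12, a membrane-anchored partner of cytosolic Hsp70, had 0.21, and -0.02 without that library. Over 12 tested ER members 2 lay above and 10 below 0, with a median of -0.17, and without WT replicate 3 the counts were 4 and 8 with a median of -0.02.

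Mitochondrial members import and fold proteins of the matrix. Hspa9, the matrix Hsp70, had 82.2, 91.2 and 210 CPM in WT replicates 1 to 3 and 93.9, 85.1 and 88.9 CPM in 5xFAD replicates 1 to 3, with WT replicate 3 alone apart. Hspd1, the chaperonin Hsp60, had 36.4, 49.6 and 95.7 CPM in WT and 38.2, 36.3 and 42.3 CPM in 5xFAD, a difference of -0.64 ± 0.327 with all libraries and -0.14 without WT replicate 3. Its partner Hspe1, Hsp10, had 13, 13.4 and 28.3 CPM and 16.6, 13 and 17.3 CPM. Hspd1 and Hspe1 lie head to head on chromosome 1, so that their promoter windows share 285 bases and with them the same pair of overlapping 3-unit heat shock elements, shown in the Hspe1 orientation with the first 2-unit match in capitals (chr1:55088048-55088077, plus strand).
Hspe1: gccacggtccgTTCTAGAAccttccggaag

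Dnajc15 and Dnajc19, J-domain proteins of the import motor, had 5.62 to 11.5 and 4.13 to 8.0 CPM in WT and 4.54 to 6.10 and 2.23 to 5.41 CPM in 5xFAD. Dnaja3, the matrix partner of Hspa9, had a difference of -0.13 and Dnajc11, of the cristae junction complex, 0.02, and without WT replicate 3 these were -0.02 and -0.01. Dnajc30, whose exons overlap those of Bud23, had 0.01, Dnajc28 -0.55 and Dnajc4 0.24, against -0.22, -0.24 and 0.08 without that library. Over 10 mitochondrial members 3 lay above and 7 below 0, with a median of -0.30, and without WT replicate 3 the counts were again 3 and 7 with a median of -0.02.

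Dnajc6, or auxilin, the neuronal J-domain protein that recruits Hspa8 to clathrin-coated vesicles, was among the most abundant members per length, at 47.1 ± 4.04 CPM per kb in WT. It had 296, 289 and 251 CPM in WT replicates 1 to 3 and 271, 247 and 245 CPM in 5xFAD replicates 1 to 3. The groups overlapped through WT replicate 3 alone. The difference was -0.13 ± 0.172, and -0.20 without that library, where the unadjusted p was 0.0388 and the adjusted p 0.315 by edgeR. Dnajc5, the synaptic vesicle protein CSPα, had 4.34 to 14.8 CPM over the 6 libraries, and Dnajc13, of endosomes, 58.2 to 105 CPM, both highest in WT replicate 3. Dnajc27, a small GTPase with a J domain, had 80.7, 73.9 and 93.3 CPM in WT and 65.8, 68.5 and 72.9 CPM in 5xFAD. Its groups did not overlap, with a difference of -0.26 ± 0.171 and an adjusted p of 0.811, and of -0.16 without WT replicate 3.

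Among J-domain proteins of RNA and the nucleus, Dnajc8, a splicing factor, had the highest level per length, 69.9 CPM per kb in WT and 72.3 in 5xFAD. Dnajc17, also linked to splicing, had 9.17, 9.18 and 8.48 CPM in WT replicates 1 to 3 and 11.2, 12.1 and 9.55 CPM in 5xFAD replicates 1 to 3. Dnajc21, of ribosome maturation, had 49.5, 49.0 and 55.7 CPM in WT and 43.6, 45.4 and 45.8 CPM in 5xFAD. Neither overlapped between groups, Dnajc17 being higher and Dnajc21 lower in 5xFAD, with differences of 0.29 ± 0.244 and -0.19 ± 0.167, and of 0.25 and -0.13 without WT replicate 3. Dnajc2, the ribosome-bound partner of Hspa14, and Dnajc9, a histone chaperone, had -0.11 and -0.49, and without that library -0.07 and 0.15.

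Of the other Hsp70 and Hsp110 genes, Hspa4l had 59.0, 50.8 and 159 CPM in WT replicates 1 to 3 and 43.4, 57.0 and 59.1 CPM in 5xFAD replicates 1 to 3, so that its difference went from -0.75 to -0.04 without WT replicate 3. Hspa12a, an atypical Hsp70 of neurons, had 213 to 299 CPM over the 6 libraries, and Hspa12b, of endothelium, 4.19 to 9.87 CPM. Hspa1l, known from testis, had the largest difference of any tested member with all libraries, 1.05 ± 0.823, on 0.0953 to 2.46 CPM, with overlapping groups. Without WT replicate 3 it was 0.55, below the 0.80 of Dnajc12 there, so that its rank rested on that library. The remaining tested members not named so far, Dnajb5, Dnajb14, Dnajc1, Dnajc12, Dnajc14, Dnajc16, Dnajc18 and Dnajc25, overlapped between groups and had differences from -0.38 to 0.04, and from -0.16 to 0.80 (Dnajc12, against -0.31 with all libraries) without WT replicate 3.

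A further 11 members had too few counts to test with all libraries, at most 14 in any library. Of these, Dnajb13, Dnajc24 and Hspb7 entered the fit without WT replicate 3, with differences of 0.01, -0.02 and -0.31, and were not called. Dnajc22 had no count. The others were Dnajb3, Dnajb7, Dnajb13, Dnajc5b, Dnajc5g, Dnajc24, Hspa13, Hspb2, Hspb3 and Hspb7. Several of these are known mainly from testis, cilia or striated muscle. Hspb2 had 0.346, 0 and 0.191 CPM in WT replicates 1 to 3 and 0.620, 0.703 and 0.478 CPM in 5xFAD replicates 1 to 3, and its exons overlap those of the lens and glial small heat shock gene Cryab on the opposite strand, which had 44.1 to 141 CPM in WT.

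The wider pathway gave 0 called genes in any list, with or without WT replicate 3, against 0.656% and 2.89% of all genes. The lists held 1 to 33 tested genes each, too few to set a count of 0 apart from these shares. Of 4 tested genes of the heat shock factor list, which were Hsf1, Hsf2, Hsf5 and the factor-binding Hsbp1, Hsf1 is the master regulator of the inducible members. It had 80.0, 82.0 and 30.6 CPM in WT replicates 1 to 3 and 81.8, 79.4 and 75.2 CPM in 5xFAD replicates 1 to 3, a difference of 0.29 with all libraries and of -0.04 without WT replicate 3. Of 33 tested co-chaperones 9 lay above and 24 below 0, with a median of -0.18, and without that library 14 and 19 with a median of -0.03. Those with the smallest p were Grpel1 and Grpel2, nucleotide exchange factors of Hspa9, with -0.84 ± 0.373 and -1.08 ± 0.521, against -0.34 and -0.66 without WT replicate 3. On the other side it was Fkbp5, an Hsp90-bound immunophilin induced by glucocorticoids. Fkbp5 had 56.8, 55.3 and 58.9 CPM in WT and 65.8, 67.4 and 79.0 CPM in 5xFAD, without overlap, a difference of 0.31 ± 0.168 with an adjusted p of 0.81 by edgeR, and of 0.34 without WT replicate 3. Bag3, the partner of Hspb8 and a target of heat shock factor 1, had 51.3, 41.2 and 19 CPM in WT and 50.6, 51.6 and 60.7 CPM in 5xFAD.

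All 8 subunits of the cytosolic chaperonin TRiC lay below 0 with all libraries, with a median of -0.46, and 6 of 8 above 0 without WT replicate 3, with a median of 0.29. In the fit without that library 3 of 8, Cct3, Cct5 and Cct8, were higher at an unadjusted p under 0.05 by edgeR, against 8.07% of all genes. After GC correction of all 6 libraries the median was -0.41. The summed level of the 8 subunits was 235, 211 and 680 CPM in WT replicates 1 to 3 and 254, 253 and 278 CPM in 5xFAD replicates 1 to 3. The lowest p was that of Cct2, with -0.75 ± 0.386, and -0.09 without WT replicate 3. Of 10 targets of heat shock factor 1 that are not heat shock or J-domain genes, 5 of which are also among the co-chaperones counted above, 5 lay above and 5 below 0, and without WT replicate 3 the counts were 7 and 3. Among them Hmox1, heme oxygenase 1, which is induced by oxidative stress as well, had 2.68, 1.93 and 1.43 CPM in WT and 4.96, 4.57 and 5.25 CPM in 5xFAD. Its groups did not overlap, and the difference of 1.28 ± 0.382 had an adjusted p of 0.375 by edgeR, and was 1.10 without WT replicate 3. Serpinh1, the collagen chaperone Hsp47, had a difference of 0.44 ± 0.231, and of 0.34 without that library.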

How the data were processed

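Hippocampal RNA of 3 5xFAD and 3 WT mice, depleted of rRNA, was sequenced as paired ends. The submitters' notes name cutadapt 1.9.3, HISAT2 2.0.4 and the mm10 genome, and HTSeq 0.9.1, by which the authors made raw counts per gene. Annotation release and strand setting were not given, so reads of overlapping genes on opposite strands cannot be told apart. The deposited raw counts of the 6 libraries were used. A further 6 columns, values normalised by the authors with edgeR 3.16.5, were not.

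In R 4.3.3 with edgeR 4.0.16, filterByExpr at a minimum count of 10 retained 12952 of 18263 genes (99.89% of counts). These were scaled by TMM and tested with the edgeR quasi-likelihood test without covariates, adjusted by Benjamini-Hochberg over all genes at 0.05. SE was taken as the size of the log2 difference over the root of its F statistic. CPM used TMM-scaled library sizes, with a prior count of 2 for log2 CPM. Positions, exon lengths and GC content came from GENCODE M21 on GRCm38. Promoters came from RefSeq (GRCm38.p6). Libraries of a group differed by far more than sampling noise (chi-square per degree of freedom 6.93 to 123), so none was a copy. The fit was tested on simulated counts. Depth of 8.45 to 12.6 M counts limits what can be seen for members with few counts.

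Named genes were all inducible and constitutive members, the 6 members of smallest p in each direction, the 3 of highest level per length in each list, Dnajc6, members described with their role, and the called genes or up to 3 of smallest p in each direction of each pathway list. Cryab, Hsf1, Bag3 and markers of other cell types were named after their values were seen, the markers being outside this rule. Members and lists were chosen with earlier results of these data known, so that no p is given over a list. Alternatives were other scalings, filters and tests (DESeq2 1.42.0, limma-voom in limma 3.58.1), a lowess correction for GC content, the replicate block, and each library left out in turn. The genotype of the 5xFAD mice is not reported here in full.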

Additional observations from a re-analysis of the deposited data

How the results depend on the processing

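The count of called members was 0 under every alternative run: other scaling (DESeq2 size factors, upper quartile), DESeq2 and limma-voom tests, no filter or a stricter one on low counts, each library left out in turn, GC correction, and Hspa1a and Hspa1b summed. The last, and GC correction without WT replicate 3, were chosen after seeing the data. The smallest adjusted p of a member ranged from 0.0951 with GC correction and without WT replicate 3 (Hspa5, 0.105 without the correction) to 0.998 without 5xFAD replicate 1. The median difference of the inducible members was -0.08 to 0.14 with each library left out, lowest without 5xFAD replicate 1 and highest without WT replicate 3, and -0.15 with Hspa1a and Hspa1b summed. The median over all tested members was -0.22 to 0.02 with each library left out, highest without WT replicate 3, and -0.01 with GC correction and without that library. The difference between inducible and constitutive members kept its sign under every alternative, from 0.03 to 0.17. The cause of these shifts was not tested.

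The replicate numbers do not pair the samples by the labels, and deviations of libraries with the same number from their group means correlated at 0.0937, 0.0694 and 0.177, although each library correlated best with its own number. With the replicate number as a block, 0 members were called, the smallest adjusted p of a member was 0.324 and 4 of 59 members had an unadjusted p under 0.05, against 6.66% of all genes. With the block and GC correction together the smallest adjusted p was 0.253.

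No difference that changed sign was called in any setting. GC correction gave the other sign for 15 of 59 members, Dnaja2 0.06, Dnaja4 -0.07, Dnajb14 0.04, Dnajb2 -0.02, Dnajb5 -0.05, Dnajb6 0.01, Dnajb9 0.04, Dnajc11 -0.05, Dnajc16 -0.05, Dnajc18 0.03, Dnajc2 0.08, Dnajc3 0.11, Dnajc30 -0.09, Dnajc7 0.01, Hspa5 0.10. The block with GC correction did so for 17, at the same values apart from Dnajb5 -0.04, Dnajb6 0.00, Dnajc13 0.00, Dnajc2 0.07, Dnajc3 0.16, Dnajc30 -0.07, Dnajc7 0.02, Hspa14 0.00, Hspa5 0.16. Dnajc16 was at -0.00 with upper-quartile scaling, and Dnajc30 at -0.00 with DESeq2 size factors and in DESeq2. With libraries left out in turn, the sign changed without WT replicate 3 for 25 of 59 members, whose ranges over all 6 omissions were Dnaja1 (-0.51 to 0.05), Dnaja2 (-0.49 to 0.16), Dnajb12 (-0.02 to 0.37), Dnajb4 (-0.72 to 0.12), Dnajb5 (-0.15 to 0.15), Dnajc11 (-0.07 to 0.08), Dnajc12 (-0.67 to 0.80), Dnajc13 (-0.35 to 0.13), Dnajc14 (-0.46 to 0.04), Dnajc3 (-0.58 to 0.41), Dnajc30 (-0.22 to 0.15), Dnajc5 (-0.78 to 0.13), Dnajc7 (-0.29 to 0.16), Dnajc8 (-0.16 to 0.19), Dnajc9 (-0.74 to 0.15), Hsp90ab1 (-0.06 to 0.06), Hsp90b1 (-0.69 to 0.02), Hspa12a (-0.17 to 0.02), Hspa14 (-0.56 to 0.42), Hspa5 (-0.43 to 0.43), Hspa8 (-0.21 to 0.03), Hspa9 (-0.75 to 0.05), Hspb11 (-0.67 to 0.12), Hspe1 (-0.41 to 0.25), Hsph1 (-0.57 to 0.08). It changed without another library alone for Dnaja4 (-0.08 to 0.14), Dnajb1 (-0.02 to 0.36), Dnajb6 (-0.22 to 0.01), Dnajc16 (-0.04 to 0.06), Dnajc2 (-0.33 to 0.01).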
